A study of Homo sapiens with 10 samples.

Results

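The table of the hepatic differentiation course listed 12125 genes, and 443 of them (3.65%) had a LINC symbol or the name of the genomic clone in which they were first annotated. They were chosen by name alone, as the genes whose symbol begins with LINC and a digit, with a clone prefix of RP, CTA to CTD and a hyphen, or with AC, AL or AP and a clone number. The rule used no measured value, but it was set with earlier results of these data known. Every gene of the table had a highest value of at least 26, so a low member is listed only through its highest days. RP clones gave 271 of the names, AC clones 91, CT clones 43, LINC symbols 21, AP clones 9 and AL clones 8.

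RNA was sequenced from the established human embryonic stem cell (hESC) line H1 before differentiation (day 0) and on days 1, 2, 3, 5 and 7 and again on days 9, 11, 13 and 21 of its stepwise conversion to hepatocyte-like cells in serum-free medium. There was 1 library per day and no replicate, so no difference between single days could be tested. Day 0 cells had received no differentiation factor. Cells of days 1 to 3 were in Activin A (100 ng/ml), which forms definitive endoderm, and those of days 5 and 7 in FGF4 (30 ng/ml) and BMP2 (20 ng/ml). Cells of days 9 to 13, when hepatoblasts are formed, were in HGF and KGF (20 ng/ml), and the medium then held Oncostatin M (OSM, 20 ng/ml) until day 21. The label of day 13 names OSM, whereas the lengths of the steps put that day at the end of HGF and KGF, and it was kept with days 9 and 11. All libraries came from 1 unmodified cell line. The pluripotency, definitive endoderm, hepatoblast and hepatocyte markers had their highest median log2(value + 1) at days 0, 3, 7 and 21, namely 10.05, 9.48, 10.03 and 12.25. Not every marker followed its median. SOX2, DPPA4 and ZFP42 were highest at day 0, but POU5F1 (6498) and NANOG (582) at day 1 and LIN28A (4862) at day 5. Of the endoderm markers, EOMES was highest at day 2 (1435) and FOXA2 at day 7 (343), and the others reached their highest value at day 3. Of the hepatocyte markers, ALB and SERPINA1 were highest at day 21, APOA1 at days 7 and 13 (4855) and FGB at days 7 to 11 (4866). TTR stayed at 18734, the highest value listed, from day 9 on, and the hepatoblast marker AFP from day 7 on. The hepatocyte median was already 11.74 at day 7.

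The values are whole-number scores after GC normalization. They are neither read counts nor scaled to gene length, so courses are read within a gene across days. Where values of different genes are set side by side, their difference does not measure a difference in amount of RNA. The sums of the libraries lay between 2330948 and 2362740 and their medians at 81 or 82, so the depth behind a value is unknown. The 3077 entries of 1000 or more took only 151 distinct values, and large values therefore move in coarse steps. Differences are given on the log2(value + 1) scale, which understates the change of low genes.

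Long noncoding RNAs are long transcripts that are not known to code for a protein. Many are made in 1 cell type or stage, many lie beside or against the transcripts of developmental transcription factors, and some are the precursors from which microRNAs are cut. A clone name says only that no symbol had been assigned when the annotation was made, so the list also takes in genes that were named later. In hESCs the class is known for transcripts of the pluripotent state and for the host of the miR-302 and miR-367 hairpins, and in endoderm for LINC00261, which lies next to the pioneer factor FOXA2.

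The name is not a class of RNA. By identifier, 391 of the 443 members were found in GENCODE release 29 and 52 were not. Of all members, 300 (67.7%) were annotated there as long noncoding, with 127 lincRNAs, 104 antisense RNAs, 41 processed transcripts, 20 sense-overlapping, 5 3-prime overlapping and 3 bidirectional promoter RNAs. Another 80 (18.1%) were protein coding and 11 were pseudogenes, so the description of the list as noncoding did not hold for these. A different name was carried by 372 members in that release, but it could be another clone name, as AC009055.2 for RP11-256I9.2. Among present gene names, 168 members had a symbol that was neither a LINC number, a clone name nor an identifier. By present names RP11-366M4.3 is APELA, RP11-566K11.2 is TUBB3, RP4-550H1.6 is NORAD, CTD-2526M8.1 is LINC-ROR and RP11-132A1.3 is LNCPRESS1. RP11-148B6.1, still under a clone name in release 29, is now the miR-302 host MIR302CHG.

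Sequences are shown first for the members whose course is described most closely below. RefSeq placed 15 microRNA hairpins on the same strand inside 10 members, and 5 of the 15 lie in RP11-148B6.1, on the minus strand of chromosome 4 (GRCh38.p14). These are MIR302A, MIR302B, MIR302C, MIR302D and MIR367. The mature 3p arms are printed 5′ to 3′ with the seed, bases 2 to 8, in capitals. The seed is the stretch that pairs with target mRNAs.
hsa-miR-302a-3p: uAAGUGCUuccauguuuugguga
hsa-miR-302b-3p: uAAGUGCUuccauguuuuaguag
hsa-miR-302c-3p: uAAGUGCUuccauguuucagugg
hsa-miR-302d-3p: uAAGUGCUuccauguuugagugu
hsa-miR-367-3p: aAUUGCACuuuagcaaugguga
The 4 miR-302 arms share the seed AAGUGCU, and miR-367-3p has AUUGCAC. The matched positions run from chr4:112647877-112647898 for miR-367-3p to chr4:112648489-112648511 for miR-302b-3p. The microRNAs themselves were not measured in these libraries.

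RefSeq promoters, from 250 bases before to 50 bases after a gene start, were matched to 138 members. Those of 3 members are printed, LINC00261 because it appears with endoderm, and RP11-132A1.3 (LNCPRESS1) and LINC00263 (OLMALINC) because they were highest at day 0. They lie at chr20:22578593-22578892 (minus strand), chr7:101299363-101299662 (plus strand) and chr10:100373326-100373625 (plus strand) of GRCh38.p14. Capitals mark matches to the searched motifs.
LINC00261: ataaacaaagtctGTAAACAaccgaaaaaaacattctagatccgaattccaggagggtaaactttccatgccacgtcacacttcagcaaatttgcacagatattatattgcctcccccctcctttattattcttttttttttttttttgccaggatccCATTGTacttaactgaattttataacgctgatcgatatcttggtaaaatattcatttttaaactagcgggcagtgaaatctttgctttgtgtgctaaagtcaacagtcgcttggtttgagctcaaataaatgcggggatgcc
RP11-132A1.3: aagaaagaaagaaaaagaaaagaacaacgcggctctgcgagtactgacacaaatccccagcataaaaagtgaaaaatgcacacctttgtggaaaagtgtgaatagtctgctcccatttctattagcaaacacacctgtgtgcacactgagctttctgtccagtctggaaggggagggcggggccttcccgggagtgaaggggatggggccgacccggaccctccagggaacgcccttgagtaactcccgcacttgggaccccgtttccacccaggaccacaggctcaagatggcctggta
LINC00263: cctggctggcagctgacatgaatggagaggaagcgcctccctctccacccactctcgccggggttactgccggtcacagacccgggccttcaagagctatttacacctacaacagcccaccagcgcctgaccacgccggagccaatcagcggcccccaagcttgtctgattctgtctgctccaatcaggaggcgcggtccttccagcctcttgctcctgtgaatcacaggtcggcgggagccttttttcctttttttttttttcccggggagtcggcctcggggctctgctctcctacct
Letters were searched on both strands for the forkhead motif TGTTTAC, the SOX core ACAATG and the POU octamer ATGCAAAT. They were held by 3.42%, 10.8% and 1.77% of 35116 RefSeq promoters of 300 bases. The LINC00261 window held 1 forkhead match, 237 bases before the start, and 1 SOX core match, 92 bases before it. The promoters of LNCPRESS1 and OLMALINC held no match to any of the 3 motifs. Of the 7 matched promoters of members that peaked at day 0, 1 held the forkhead motif and 0 held either of the others. The 1 with a match was taken from a start 88978 bases from that of LINC00371 in GENCODE and is not printed. No match says only that these letters are not in the window.

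The members were listed at low values. The median of the highest value over the 10 days was 56, against 156 for the 11682 other genes, and 256 members (57.8%) reached 50 against 89.8% of the others. A value of 0 in at least 1 library was found in 120 members (27.1%) and in 6.19% of the other genes. Only 28 members reached 500 and 17 reached 1000, the highest being 3862. Counts below are over the 256 members with a highest value of at least 50, and the remaining 187 were not classed.

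The summed value of the members was largest at day 0. Their values made up 2.12% of the sum of the day 0 library and 1.56%, 1.54% and 1.53% at days 1, 2 and 3. The share lay between 1.204% and 1.273% at days 5 to 13 and was 1.08% at day 21. Members with high values weigh most in such a sum, and RP11-727A23.10 alone went from 3862 at day 0 to 768 at day 1. The number of members at 50 or more went from 145 at day 0 to 110 at day 13 and stood at 128 at day 21. The median member had a value of 33 at day 0 and 28 at day 21, while that of the other genes was 84 on both days.

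A gene was called peaked in a stage when its highest value, of at least 50, fell in that stage and lay at least 2-fold above the highest day outside it on the log2(value + 1) scale. The stages were day 0, days 1 to 3, days 5 and 7, days 9 to 13, and day 21. By this rule 51 of the 256 members (19.9%) were peaked in some stage, against 9.34% of all genes. Day 0 took 28 of the 51. These are 10.9% of the members classed, against 1.2% of all genes, and they make up 21.7% of the 129 genes of the table that peaked at day 0.

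Away from day 0 the members were close to the whole table. Days 1 to 3 held 6 members (2.34%, all genes 2.47%), days 5 and 7 held 5 (1.95%, all genes 1.43%), days 9 to 13 held 5 (1.95%, all genes 1.03%), and day 21 held 7 (2.73%, all genes 3.21%). Day 21 is, like day 0, a stage of 1 library. At a 4-fold gap in place of 2-fold, 4 members were peaked at day 0. With day 13 put with day 21, as its label has it, 1 member was peaked in days 9 and 11. No count over all genes was made at these settings.

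**Figure D1:**
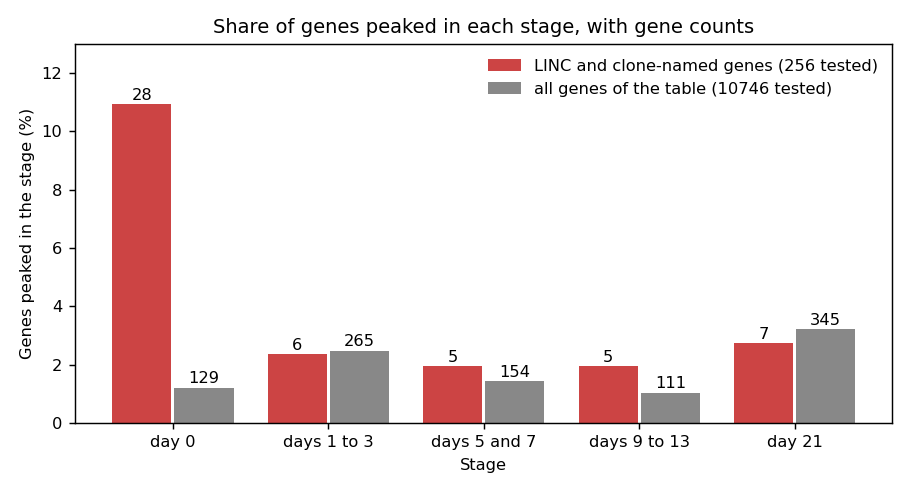
Percentage of genes peaked in each of the 5 stages, for the 256 LINC and clone-named genes with a highest value of at least 50 (red) and for all 10746 such genes of the table (grey), with the number of genes above each bar. The member bar stands at 10.9% at day 0, and from days 1 to 3 onwards each member bar lies within 1 percentage point of the grey one.

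Long noncoding members made up most of the day 0 list and protein-coding members most of the day 21 list. Of the 28 members peaked at day 0, 24 were annotated long noncoding, 3 protein coding and 1 was not found, so that 15.2% of the 158 long noncoding members classed and 5.17% of the 58 protein-coding members classed were peaked there. At day 21 it was 5 of 7 that were protein coding, 8.62% of the protein-coding members and 1.27% of the long noncoding ones. Of the 61 long noncoding genes with other names that were classed 6.56% peaked at day 0 and 8.20% at day 21. Of the 10325 protein-coding genes with other names 0.920% and 3.22% did.

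The stage of day 0 rests on 1 library, and the later course of its 28 members was read from the other 9. Their median value was 249 at day 0, went to 88 and 91 at days 1 and 3, and was 5.5 at day 7 and 1 at day 13. In 24 of the 28 (85.7%) the highest of days 1 to 3 was at least 2-fold above every later day, against 58.1% of the 129 day 0 genes of the whole table. All 28 were lower at day 7 than at day 1, as were 121 of the 129 day 0 genes of the whole table. At day 13, 21 of the 28 were at 10 or below, against 68 of the 129. With the day 0 library left out, 37 members were peaked in days 1 to 3, which is 15.6% of 237 classed, against 8.32% of all genes. This alternative was chosen after seeing the data.

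Of the 6 day 0 members with the widest gap, 3 are antisense RNAs, and the others are 2 lincRNAs and 1 processed transcript. CTD-2058B24.2, an antisense RNA at chromosome 14, 38503492 to 38663486 in the table, had 1000 at day 0, then 188, 121 and 96 at days 1, 2 and 3, 10 and 4 at days 5 and 7, and was listed at 0 from day 9 on. RP11-727A23.10 (CCDC90B-AS1) had the highest value of any member, 3862 at day 0, with 768, 545 and 478 at days 1, 2 and 3, 134 and 84 at days 5 and 7, and 26, 24, 5 and 50 on the later days. Its gap to day 1 was 5.02-fold.

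CTD-2354A18.1 (LINC02582) had 1214 at day 0, 332, 148 and 112 on the Activin days and 20 or less thereafter. RP11-267L5.1 had 980, then 215, 121 and 95, and 12 or less from day 5. AC074289.1, which lies against PELI1, had 934, then 235, 135 and 113, and 12 or less from day 5. In these 5 members the highest day outside day 0 was day 1, so their step down between these days follows from the choice by widest gap. They also share a smaller decline through days 2 and 3 and another step down between days 3 and 5. RP11-536I6.2 was lower, with 142, 33, 33 and 24 on days 0 to 3, 3 at day 11, 1 at day 13 and 0 on the other days.

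The genes outside the list that were most like these members over the 10 days, by Pearson r of log2(value + 1), gave r between 0.98 and 0.99. They were DPPA4, a pluripotency-associated gene, for CTD-2058B24.2 and HHLA1 for RP11-727A23.10. NUP205, a nuclear pore subunit, was most like CTD-2354A18.1. MYEF2 was most like RP11-267L5.1, the kinase gene LCK most like AC074289.1, and PPP2R3B most like RP11-536I6.2. HHLA1 had 4858 at day 0, 1044 at day 1 and 26 at day 21. Such r is over 10 days of 1 course, which are not independent, and it was taken as the best of all genes listed.

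**Figure D2:**
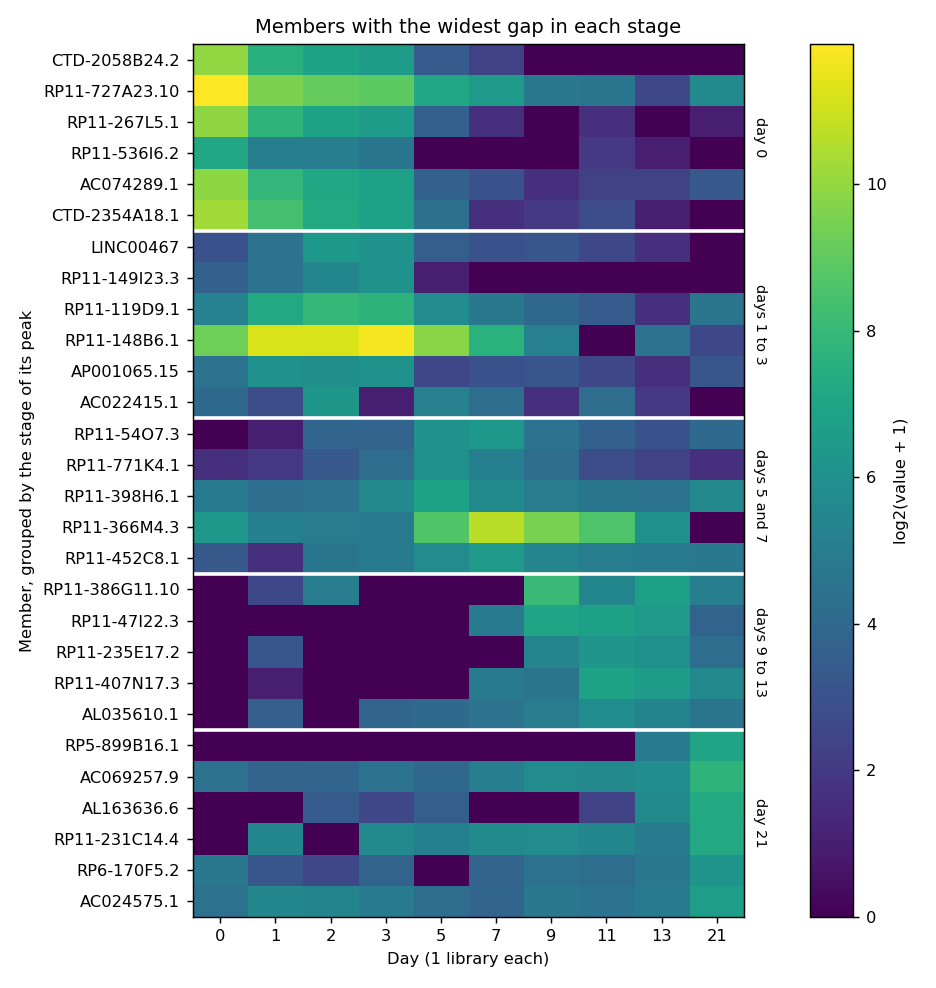
log2(value + 1) of the up to 6 members with the widest gap in each stage (rows, grouped by stage, 28 in all) in the 10 libraries (columns, day 0 to day 21, 1 library each). The day 0 rows run down from left to right through days 1 to 3, whereas several rows of days 9 to 13 and of day 21 pass between 0 and low values in neighbouring libraries.

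Known transcripts of the pluripotent state were among the remaining day 0 members. They were picked out after their values were seen. LINC-ROR (CTD-2526M8.1), named for a role in reprogramming, had 202 at day 0, 94, 78 and 92 on days 1 to 3, 18 at day 5 and 2 or less later. LNCPRESS1 (RP11-132A1.3), a p53-regulated RNA of pluripotent cells, had 210, 63, 41 and 22 on days 0 to 3 and was listed at 0 in every library from day 5. Its neighbour RP11-132A1.4 (EMSLR), 7076 bases away in the table, had 112, 46, 47 and 28, then 2, and 0 from day 7. The pair thus left the libraries within 1 step of each other (r = 0.98 over 10 days), while RABL5, the nearest gene outside the list, gave r of 0.30 and 0.39 with them.

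LINC00263 (OLMALINC), first described in oligodendrocytes, had 891 at day 0, 324, 258 and 207 on days 1 to 3, 62 at day 5 and between 26 and 42 afterwards, so it did not go to 0. ERVH-1 (RP11-380P13.2), whose name is that of an endogenous retrovirus, had 1130, 407, 237 and 175, and 24 or less from day 5. RP11-308B16.1 (LINC01194) had 157, 52, 45 and 40 and was listed at 1 in all libraries from day 5. Another pair, CTD-2142D14.1 and CTD-2058B24.2 (r = 0.95), overlaps on opposite strands, and reads of the shared region cannot be told apart because the library kit does not mark strand. CTD-2142D14.1 had 108 at day 0, 31, 26 and 31 on days 1 to 3 and 0 from day 5.

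2 further hESC transcripts did not meet the day 0 rule. LINC00458, described in hESCs, stayed high through the Activin days, with 444 at day 0, 202, 336 and 446 at days 1 to 3, 29 and 20 at days 5 and 7, and 20 or less later. TUNAR (RP11-185P18.1), annotated protein coding in release 29, had 300, 226, 190 and 190, then 51 and 18, and 14 or less from day 9. Both were lower by 4-fold or more from day 3 to day 7, and neither was from day 0 to day 3. TUNAR was named after its values were seen.

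At the day 0 threshold, the last member inside had a gap of 1.02 on the log2 scale, and the first outside, AC007250.4, had 0.98. In the stages of days 1 to 3, days 5 and 7, days 9 to 13 and day 21 the gaps just inside were 1.08, 1.02, 1.14 and 1.14, and those just outside 0.99, 0.98, 0.72 and 0.99.

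Of the 6 members peaked in days 1 to 3, the miR-302 host had the highest value. RP11-148B6.1 (MIR302CHG), at chromosome 4, 113567632 to 113571207 on the minus strand in the table, had 630 at day 0, 2438 at days 1 and 2, 3438 at day 3, 876 and 192 at days 5 and 7, and 36, 0, 22 and 5 at days 9, 11, 13 and 21. The host of the 5 hairpins printed above was thus 3.92-fold above its highest day outside the stage, and it was the member with the largest log2 range, 11.75. It overlaps LARP7, which encodes a protein bound to the 7SK RNA, on the opposite strand. LARP7 had 264 at day 0, 724, 484 and 497 at days 1, 2 and 3, 342 and 175 at days 5 and 7, and between 48 and 122 later. The pair gave r = 0.93 over 10 days, and reads of the region they share cannot be assigned to a strand. From its highest day to day 21 the host went from 3438 to 5, and LARP7 from 724 to 48.

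LINC00467 had 7 and 22 at days 0 and 1, 82 and 67 at days 2 and 3, and 11 or less from day 5. RP11-119D9.1 (LINC02754) had 38 at day 0, 152, 240 and 207 at days 1 to 3, 53 at day 5 and 26 or less later. RP11-149I23.3, an antisense RNA, had 12 at day 0, 22, 43 and 68 at days 1 to 3, 1 at day 5 and 0 from day 7. Its course was most like that of LEFTY1 (r = 0.99), the Nodal antagonist that Activin signalling induces, which had 174 at day 0, 4861 at day 3 and 8 at day 5. AP001065.15 (LINC02575) had 22 at day 0, 67, 60 and 67 at days 1 to 3 and 8 or less from day 5. AC022415.1 had 16, 6, 77 and 1 on days 0 to 3, so its call came from the day 2 library alone. Its interval overlaps ZNF788 on the same strand, so reads of the shared region can be split between them. ZNF788 had 70, 101, 26 and 60 on days 0 to 3.

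LINC00261 stood out among the members that came on with endoderm, although it was spread over too many days to be called peaked. It was listed at 0 at day 0, had 2, 98 and 146 at days 1, 2 and 3, 262 and 1089 at days 5 and 7, 875, 806 and 686 at days 9, 11 and 13, and 113 at day 21. FOXA2, whose nearest end is 2363 bases away in the table, was also listed at 0 at day 0, had 42, 200 and 190 at days 1 to 3, 184 and 343 at days 5 and 7, 210, 208 and 144 at days 9 to 13, and 48 at day 21. Both were highest at day 7 and both came down by day 21, and r over 10 days was 0.86. The steps differed in size. From day 3 to day 7 LINC00261 was higher by 2.89 and FOXA2 by 0.85 on the log2 scale. The gene most like LINC00261 over the course was SRC (r = 0.98), which ran from 88 at day 0 to 574 at day 11.

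The 5 members peaked in days 5 and 7 included APELA (RP11-366M4.3), which is protein coding and makes a peptide ligand of the apelin receptor. APELA had 80 at day 0, between 30 and 34 on days 1 to 3, 410 and 1640 at days 5 and 7, 744, 395 and 63 at days 9, 11 and 13, and was listed at 0 at day 21. Its gap to day 9 was 1.14 on the log2 scale. It was the only member of the stage above 121, and the other 4 were lincRNAs of low value. RP11-54O7.3 (LINC02593) had 68 and 80 at days 5 and 7 and 22 or less on other days. It lies 5188 bases from SAMD11, which was also peaked in days 5 and 7, with 209 and 70 there and 53 or less elsewhere. RP11-771K4.1 (LINC02387) had 63 and 34, RP11-452C8.1 (LINC02469) 52 and 86, and RP11-398H6.1 had 121 and 50 at these days with 48 at both days 3 and 21. The gap of RP11-452C8.1, 1.02 on the log2 scale, was 0.95 with 5 added before the log and 0.99 after median-of-ratios scaling, under the threshold of 1 in both.

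The 5 members peaked in days 9 to 13 had highest values between 54 and 269. RP11-386G11.10 and RP11-407N17.3 were the most uneven between libraries of this stage. RP11-47I22.3 (LINC03033) was listed at 0 through day 5, had 30 at day 7, 122, 108 and 87 at days 9, 11 and 13, and 13 at day 21. The gene of identifier ENSG00000262304, annotated protein coding, had 42, 74 and 63 at days 9 to 13, 18 at day 21, 8 at day 1 and 0 on the other days. It overlaps TRPV1 on the same strand, so reads of the shared region can be split between them. AL035610.1 (LINC01697) had 31, 54 and 40 at days 9 to 13. RP11-386G11.10 (TUBA1B-AS1) had 269, 44 and 104, with 33 at day 21 and 31 at day 2, and RP11-407N17.3 had 23, 121 and 92. The last 2 overlap highly expressed or same-strand genes, TUBA1B and CTAGE5, and they are the 2 members that differed at least 4-fold between days 9 and 11.

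AC132217.4 was highest at day 13 but was not called peaked, since it stayed high at day 21, and it was named after its values were seen. AC132217.4, a 3-prime overlapping RNA on the strand of the growth factor gene IGF2 at chromosome 11, 2150351 to 2151194 in the table, had 8 or less through day 7, then 331, 890, 1638 and 1554 at days 9, 11, 13 and 21. IGF2 had 124 at day 7, 2796 at day 9, 6494 at days 11 and 13 and 3861 at day 21, and the pair gave r = 0.95. The intervals of the table overlap on the same strand, so reads of the IGF2 transcript end and of AC132217.4 cannot be told apart. Stromal markers, all 8 of 8 found, had summed values between 699 and 1035 through day 5, 5039 at day 7, 18651 and 20925 at days 9 and 11, and 38640 and 41783 at days 13 and 21, with 0 of the 8 at 0 from day 5. Their part in the course of AC132217.4 was not tested. In bulk RNA, a change in the number of cells of a type and a change in RNA per cell cannot be told apart.

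The 7 members peaked at day 21 were mostly protein-coding genes under clone names. AC069257.9 is SLC51A, a subunit of the basolateral bile acid exporter. It had between 13 and 33 through day 7, 53, 48 and 57 at days 9, 11 and 13, and 211 at day 21, a gap of 3.66-fold. The gene most like it was A2M (r = 0.99), a plasma protease inhibitor made by liver, which had 120 at day 13 and 4858 at day 21. AC024575.1 (PLPPR2) had 101 at day 21 and 43 or less before, and RP6-170F5.2 (SERTM2) had 72 at day 21 and 26 or less before. AL163636.6 had 50 at day 13, 155 at day 21 and 11 or less before. Its interval overlaps RNASE4 on the same strand, so reads of the shared region can be split between them. RNASE4 had 14 at day 13 and 37 at day 21. RP11-231C14.4 (NPIPB12) had 146 at day 21 but ran between 0 and 52 before, and it belongs to a family of near-identical copies among which reads can be split.

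The long noncoding members of day 21 were RP5-899B16.1 and RP11-216L13.8. RP5-899B16.1 (FILNC1), a FoxO-induced RNA, was listed at 0 in every library through day 11, at 30 at day 13 and at 123 at day 21. RP11-216L13.8 (CCDC183-AS1), which lies against C9orf86 (r = 0.92), had 54, 13 and 120 at days 7, 13 and 21, and was named after its values were seen. At days 13 and 21 the red blood cell markers summed to 5741 and 2800, against 5 to 47 through day 7. The 4 endothelial markers found of 5 summed to 1924 and 1238, against 256 to 584 through day 7. The 2 macrophage markers found of 7 summed to 50 and 324, against 0 to 39 through day 7, and the day 13 sum was CD68 alone. Their part in the day 21 members was not tested.

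Between the ends of successive steps, genes were called different at 4-fold or more, with a larger value of at least 50. From day 0 to day 3, 20 of the 174 members tested (11.5%) were lower, against 2.16% of all genes, and 9 (5.17%) were higher, against 3.94%. From day 3 to day 7, 29 of 173 (16.8%) were lower, against 4.41%, and 11 (6.36%) were higher, against 5.63%. With no minimum value, 45 members were higher and 34 lower in the first of these steps, so its balance among members depended on the minimum of 50. In the other step 36 were higher and 65 lower. No count over all genes was made without the minimum. The median member differed by -0.28 and -0.10 on the log2 scale in these steps, and the median of all genes by -0.06 and -0.04.

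From day 7 to day 13, 10 of 152 members (6.58%) were lower, against 2.46% of all genes, and 5 (3.29%) were higher, against 3.08%. The lower ones included TUBB3 (RP11-566K11.2), a tubulin best known from neurons and, like LINC01356 below, named after its values were seen, which had 1044 at day 3, 496 at day 7 and 82 at day 13. From day 13 to day 21, 7 of 149 (4.70%) were higher, against 2.28%, and 3 (2.01%) were lower, against 1.62%. The balance of this step among members depended on the rule. At a 2-fold difference 20 were higher and 23 lower, and with no minimum value 25 were higher and 30 lower. No count over all genes was made under these rules. LINC01356 (RP11-426L16.8) was counted in both steps, with 230, 358, 551 and 620 on days 0 to 3, 300 and 272 at days 5 and 7, 154, 103 and 20 at days 9, 11 and 13, and 434 at day 21. It was thus lowest at day 13 and back within its earlier range at day 21. The median member differed by -0.35 between days 7 and 13 and by 0.17 between days 13 and 21, and the median of all genes by -0.05 in both.

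Over the 10 days, 141 of the 256 members (55.1%) had a range of at least 4-fold, against 40.2% of all genes. The steadiest were NUTM2A-AS1 (RP11-322M19.1), which belongs to a family of copies among which reads can be split and lay between 48 and 63, and RP11-350F4.2, between 36 and 52. Close to them came NUTM2B-AS1 (RP11-773D16.1), between 41 and 63, ERVK3-1 (AC020915.4), between 116 and 180, and RP11-488L18.10, between 40 and 65. Of the members with the highest means, NORAD (RP4-550H1.6), which binds Pumilio proteins, was the steadiest, with 704 to 724 through day 3, 902 and 1279 at days 5 and 7, and 1044 to 1108 afterwards. RP11-133K1.6 lay between 1250 and 2970 and LINC01641 (CTD-2090I13.1) between 714 and 1734, both lowest at day 21. AC005062.2 was highest at day 0, at 2438, and lowest at day 21, at 460.

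From a list of 18 known LINC symbols, 5 were in the table under that name, LINC00261 and LINC00458 (above) and 3 that stayed at low values with little range. CYTOR (LINC00152) lay between 14 and 40 and SNHG20 (LINC00338), a host of small nucleolar RNA, between 20 and 43. SMIM26 (LINC00493), which codes for a small membrane protein, lay between 31 and 54.

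Days 9 and 11 share a medium, and their difference holds the spread between libraries together with any change between those days. The standard deviation of the log2 difference over members was 1.38 at mean values under 10, 1.19 at 10 to 30, 0.46 at 30 to 100 and 0.48 at 100 and over. For other genes it was 1.195, 0.72, 0.41 and 0.30. At 10 to 30, 19.4% of the members and 10.1% of the other genes differed by 2-fold or more. In the same range of values the order was the same between days 1 and 2, with 29.5% of members and 25.6% of other genes. It was reversed between days 5 and 7, with 28.8% and 32.0%. By the 4-fold rule 1 of 132 members was higher at day 11 than at day 9, against 0.107% of all genes, and 1 was lower, also against 0.107%. These are RP11-407N17.3 and RP11-386G11.10, given above. Members whose values lie under 30 on the days compared are described here by their values only.

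**Figure D3:**
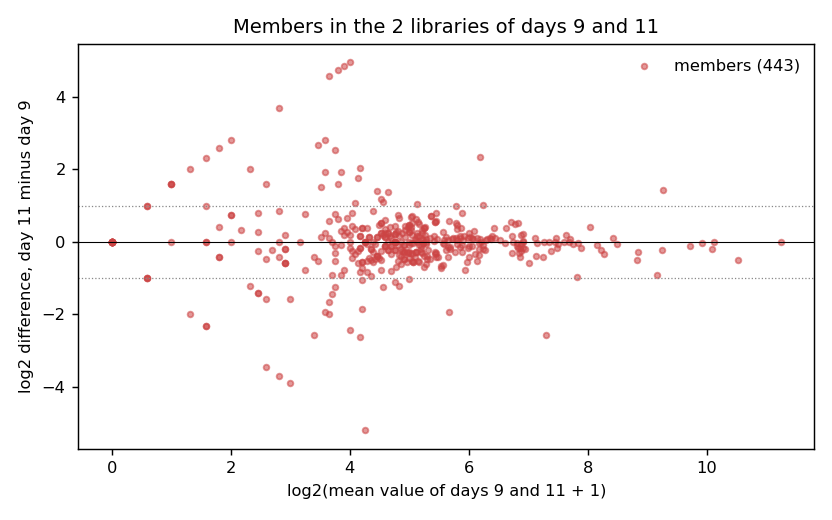
Difference of log2(value + 1) between days 11 and 9 (y axis) against the log2 of their mean value plus 1 (x axis) for the 443 members, with dotted lines at a 2-fold difference. The points fan out to the left, and the standard deviation was 1.38 at mean values under 10 and 0.48 at 100 and over.

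The nearest listed gene outside the list lay within 100 kb for 200 of the members with a highest value of at least 50. The median Pearson r between a member and that gene over the 10 days was 0.33, and 14 pairs (7%) had r of 0.9 or more. The 8928 pairs of other genes had a median of 0.17 and 3.13% at 0.9 or more. For members that overlapped the gene on the opposite strand the median was 0.40 (40 pairs), for those on the same strand 0.14 (23 pairs), and for pairs that did not overlap 0.33 (137 pairs). In all, 126 members overlapped a listed gene with another name, 87 of them on the opposite strand. Reads of such pairs cannot be told apart without strand.

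The pairs most alike included genes of muscle, germline and early development. RP11-431J24.2 had 110 and 144 at days 2 and 3 and MAGEB17, a MAGE family gene that it overlaps, 84 and 106, and both had 5 or less at day 21 (r = 0.99). TTN-AS1 (AC009948.3) had 242 at day 7 and TTN, the giant muscle protein titin, 2638, and both were highest on that day (r = 0.97). The lincRNA of identifier ENSG00000250899, 772 bases from TEAD4 on the same strand, had 116 at day 5 and 4 at day 21, and TEAD4, a partner of YAP, had 271 and 14 (r = 0.98). FOXD3-AS1 (RP4-792G4.2) had 230, 136, 72 and 41 on days 0 to 3, while FOXD3, a transcription factor of pluripotent and neural crest cells, had 23, 72, 36 and 26. Both were listed at 0 in the 6 libraries from day 5 (r = 0.98), but over days 0 to 3 the antisense RNA was highest at day 0 and FOXD3 at day 1. AC120194.1, which overlaps TRAM1, had 37 at day 0 and 200 at day 21, and TRAM1 had 228 and 1734 (r = 0.97).

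The pairs least alike ran against each other in time. RP11-256I9.2, a lincRNA 68937 bases from CDH11, was itself peaked at day 0, with 2164, 604, 436 and 278 on days 0 to 3, 26 and 8 at days 5 and 7 and 3 or less later. CDH11, a cadherin of mesenchymal cells, had 11, 50, 18 and 3 on days 0 to 3, 40 and 98 at days 5 and 7, and 404, 804, 1107 and 872 at days 9, 11, 13 and 21 (r = -0.89). LINC01873 (AC092669.3) had 149 at day 0 and 74 at day 21, and the homeobox gene MEIS1, 41002 bases away, was listed at 0 at day 0 and at 56 at day 21 (r = -0.87). PSMA3-AS1 (RP11-349A22.5) had 56 at day 0 and 96 at day 13, and PSMA3, a proteasome subunit on the other strand, 353 and 122 (r = -0.91). LINC01001 (RP11-304M2.2) with BET1L gave r = -0.86 and GARS1-DT (AC005154.6) with GGCT r = -0.81. In PSMA3-AS1, GARS1-DT, LINC01001 and LINC01873 the member itself moved by less than 5-fold.

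Long noncoding genes that carry a symbol of their own, and so are not in the list, were set beside the members. From a list of 50 such genes, 22 were in the table under their symbol and 20 of these reached 50, with a median highest value of 283.5. NORAD, TUNAR, LINC-ROR and some others of that list are members under clone names. Of the 20, 10 had a range of at least 4-fold, 2 were peaked at day 0 and 2 at day 21. MIAT had 781, 96 and 11 at days 0, 1 and 3, and RMST, a neural RNA, had 137, 46 and 36 on those days. Both were thus highest at day 0, as the day 0 members were. MEG3 had 54 or less through day 13 and 460 at day 21, and NEAT1, the scaffold of paraspeckles, had 102 at day 13 and 804 at day 21. TUG1 lay between 517 and 756, and SNHG1 between 264 and 452.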

How the data were processed

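RNA-seq of 10 samples, 1 for each day, was analysed. Per the submitters' processing notes the authors used Bowtie2 2.2.0, RSEM 1.2.17 and EDASeq. The notes name hg19 and mm10 as builds, and gene positions are those of the deposited table. The library kit was TruSeq RNA, which does not mark strand. The table the authors deposited holds GC-normalized scores as whole numbers with nearly the same distribution in every column, so library depth is unknown and no interval for counting error could be given. Columns were matched to days by name, and 0 columns belonged to other samples.

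Members and gene lists were chosen with earlier results of these data known. Differences were taken on log2(value + 1). A gene peaked in a stage at a highest value of at least 50 and a log2 gap of at least 1 to every day outside it, and differed between days where the log2 values lay 2 or more apart and the larger value was at least 50. Stages followed the timing of the protocol. No test was run, since each day has 1 library and the days of a stage are different time points and not replicates. Gene classes came from GENCODE release 29 and sequences from RefSeq (GRCh38.p14), both joined by identifier or symbol. The members named were the 6 with the widest gap in each stage, the 5 with the highest mean, the 5 with the smallest range, those of a list of known LINC symbols, the 5 most and 5 least like their nearest listed gene within 100 kb, and the gene most like each stage-peaked member. Others are marked as named after their values were seen. Alternatives were other pseudocounts, minimum values and thresholds, a median-of-ratios scaling, other stage definitions, and leaving out each library. Python 3.11.15, numpy 2.4.6, pandas 2.3.3, scipy 1.17.1 and matplotlib 3.10.9 were used, and the code was tested on simulated data.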

Additional observations from a re-analysis of the deposited data

How the results depend on the processing

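Counts of members at day 0 depended on the width of the gap and little on the other settings run: 4 were peaked there at a 4-fold gap in place of 2-fold, and 25 to 34 under the other alternatives. At a 4-fold gap the counts of days 1 to 3, days 5 and 7, days 9 to 13 and day 21 were 3, 0, 1 and 1. At a minimum value of 100 the first 3 of these were 2, 2 and 3, and with no minimum days 1 to 3 and days 9 to 13 held 12 and 9. With a stage taken as the mean of its days, days 5 and 7 and days 9 to 13 held 2 and 3, and with day 13 put with day 21, days 9 to 13 held 1. Leaving out 1 library of days 1 to 13 at a time gave 28 to 34 at day 0 and 5 to 11 in days 1 to 3 (11 without day 5). It gave 3 to 6 in days 5 and 7 (3 without either day), 3 to 7 in days 9 to 13 (3 without day 11) and 7 to 9 at day 21. Without the day 0 library, an alternative chosen after seeing the data, days 1 to 3 held 37. Apart from this setting, whose share of all genes is given above, the alternatives were counted for members only. How the members stand to all genes under them is therefore not shown.

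With no minimum value, members higher and lower were 45 and 34 from day 0 to 3, 36 and 65 from day 3 to 7, 23 and 44 from day 7 to 13, 25 and 30 from day 13 to 21, and 15 and 12 from day 9 to 11. At a minimum of 100, members higher were 5, 5 and 3 in the first 3 steps, and members lower were 18, 4 and 1 from day 3 to 7, day 7 to 13 and day 13 to 21. At a 2-fold difference, members higher and lower were 20 and 46 from day 0 to 3, 13 and 28 from day 7 to 13, 20 and 23 from day 13 to 21, and 3 and 2 from day 9 to 11, and 27 were higher from day 3 to 7. A range of at least 4-fold was found in 79 members at a minimum of 100 and in 261 with none. The standard deviation between days 9 and 11 at mean values of 10 to 30 was 0.79 with 5 added before the log. For the 29 named members peaked in a stage, the log2 gap was recomputed with the pseudocount of 5 and with the median-of-ratios scaling, and it fell below the threshold of 1 in RP11-452C8.1 alone (0.95 and 0.99). The scaling factors lay between -0.13 and 0.08 on the log2 scale. The alternatives of this paragraph were also counted for members only. The causes of these shifts were not tested. No paired analysis was possible because each day has 1 library.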
